A study of Mus musculus with 15 samples.

Results

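The 9 genes described here encode transcription factors that set the granulocyte and monocyte fates of blood cells. They are Spi1, Cebpa, Cebpb, Cebpd, Cebpe, Irf8, Gfi1, Klf4 and Zeb2, and the rule that picks them uses gene names. All 9 were found, each once, among the 38315 genes of the deposited expression table, and all 9 passed the filter on low values that left 18941 genes for testing.

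Bulk RNA sequencing was done on bone marrow from mice in 3 groups, 15 samples in all. The leukaemic group held 7 marrows with acute myeloid leukaemia (AML) from mice transgenic for NUP98-NSD1, a fusion of a nuclear pore protein with a histone methyltransferase, together with FLT3-ITD, an internal tandem duplication that keeps the FLT3 receptor active. The normal marrow was wild type and came as 4 whole samples and 4 lineage-negative samples, the latter being the immature fraction left when cells with mature lineage markers are removed. Age, sex, strain, the promoters that drive the alleles and the antibodies used for depletion are not given in the sources used here. The labels do not say that each normal sample came from its own mouse, so p-values measure the spread between these samples.

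PU.1, the product of Spi1, and C/EBPα, the product of Cebpa, act early in myeloid development and are needed by both fates. Irf8 together with Klf4 and Zeb2 favours monocytes and dendritic cells, whereas Gfi1, a repressor, and Cebpe favour neutrophils. Irf8 and Gfi1 are known to oppose each other at the branch between the fates, and Cebpb and Cebpd are C/EBP family members active in inflammatory and mature myeloid cells.

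Values are the authors' normalized counts, that is, estimated reads divided by a library size factor. Whole marrow was the shallowest group, at an estimated 11.4 to 17.2 M reads, against 20.3 to 35.1 M for AML and 20.3 to 28.1 M for lineage-negative marrow. On the deposited scaling the median of all genes was 0.67 (log2) higher in AML than in whole marrow and 0.59 higher in lineage-negative than in whole marrow, but it differed by only 0.02 between AML and lineage-negative marrow. Differences from whole marrow are therefore also given after TMM scaling, which brings these medians to -0.01, -0.09 and 0.03. Whole marrow also stood apart in its low values. Only 7.12 to 15.7% of its genes were at 0, against 35.7 to 41.0% in lineage-negative marrow, and its mean over 1750 olfactory and vomeronasal receptor genes, which marrow is not known to use, was 6.31 to 11.9 normalized counts, against 0.325 to 0.462 in lineage-negative marrow and 0.404 to 3.34 in AML. This background moves with every comparison that involves whole marrow. Subtracting it from each library changed no call on the 9 factors on the deposited scaling, and its part in the shift of the median was not tested. AML replicates 5 and 6 stood apart from the other AML libraries, with 29.1% and 23.6% of genes at 0 against 38.2 to 41.4%. Cell type markers differed between the groups. The summed level of 7 neutrophil markers ran from 381299 to 1311027 in AML and from 403604 to 1096071 in whole marrow, but only from 897 to 15960 when lineage-negative. The sum of 5 monocyte markers ran from 66352 to 128710 in AML, from 15983 to 34500 in whole marrow and from 18422 to 29162 in the lineage-negative fraction. The sum of 6 erythroid markers was 544815 to 1331744 in whole marrow and 293 to 19531 in AML. All 5 eosinophil, 5 basophil and mast cell and 4 megakaryocyte markers were called lower in AML than in either normal group on both scalings. Of all genes 11.3% were called lower than in whole marrow (16% after TMM scaling) and 12.5% than in lineage-negative marrow (12.4%). The eosinophil sum was 338 to 1367 in AML, 22028 to 49786 in whole marrow and 7393 to 39932 in lineage-negative marrow. The sum of 5 B cell markers was 458 to 4997 in AML, 3277 to 7128 in whole marrow and 297 to 521 in lineage-negative marrow. None of the markers in these lists was at 3 or fewer normalized counts in every library. The part of these differences in the results on the 9 factors was not tested, and in bulk samples fewer cells of a type and less RNA per cell cannot be told apart.

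Against whole marrow, 6 of the 9 factors were called higher in AML and 0 lower, where a call needed a limma adjusted p under 0.05 and a log2 difference of at least 1. The 6 were Spi1, Cebpa, Cebpb, Irf8, Klf4 and Zeb2. On this scaling 27.3% of all genes were called higher and 11.3% lower. After TMM scaling 3 of the 9 were called higher (Cebpa, Irf8 and Klf4) and 0 lower, beside 4.73% and 16% of all genes. Against lineage-negative marrow 6 of 9 were called higher in AML, namely Spi1, Cebpb, Cebpd, Cebpe, Irf8 and Klf4, and 0 lower, on either scaling. Of all genes 17.7% were called higher there and 12.5% lower as deposited, and 17.6% and 12.4% after TMM scaling. The median difference of the 9 factors was 1.42 against whole marrow (0.73 after TMM scaling) and 1.78 against lineage-negative marrow (1.79). Both comparisons use the same 7 AML samples. Without AML replicates 5 and 6 the counts were 6 and 6 as deposited and 3 and 6 after TMM scaling. Irf8 and Klf4 were called higher than both normal groups on both scalings, and Spi1 and Cebpb on the deposited scaling alone, which makes 4 of 9 factors as deposited (7.2% of all genes) and 2 of 9 after TMM scaling (2.82%).

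Overlap between the libraries gave a similar picture. All 7 AML libraries lay above all 4 whole marrow libraries for 6 of the 9 factors and below them for 0, beside 35.8% and 7.88% of all genes, and after TMM scaling for 5 (Spi1, Cebpa, Irf8, Klf4 and Zeb2) and 1 (Cebpe), beside 10.9% and 15.1%. Against lineage-negative marrow AML lay wholly above for 5 factors on either scaling (17% and 17.4% of all genes) and below for 0 (17.6% and 17.8%). The factors with every AML library above all 8 normal libraries were Spi1, Cebpb and Klf4 as deposited (8.56% of all genes) and Spi1 and Klf4 after TMM scaling (4.16%).

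**Figure D1:**
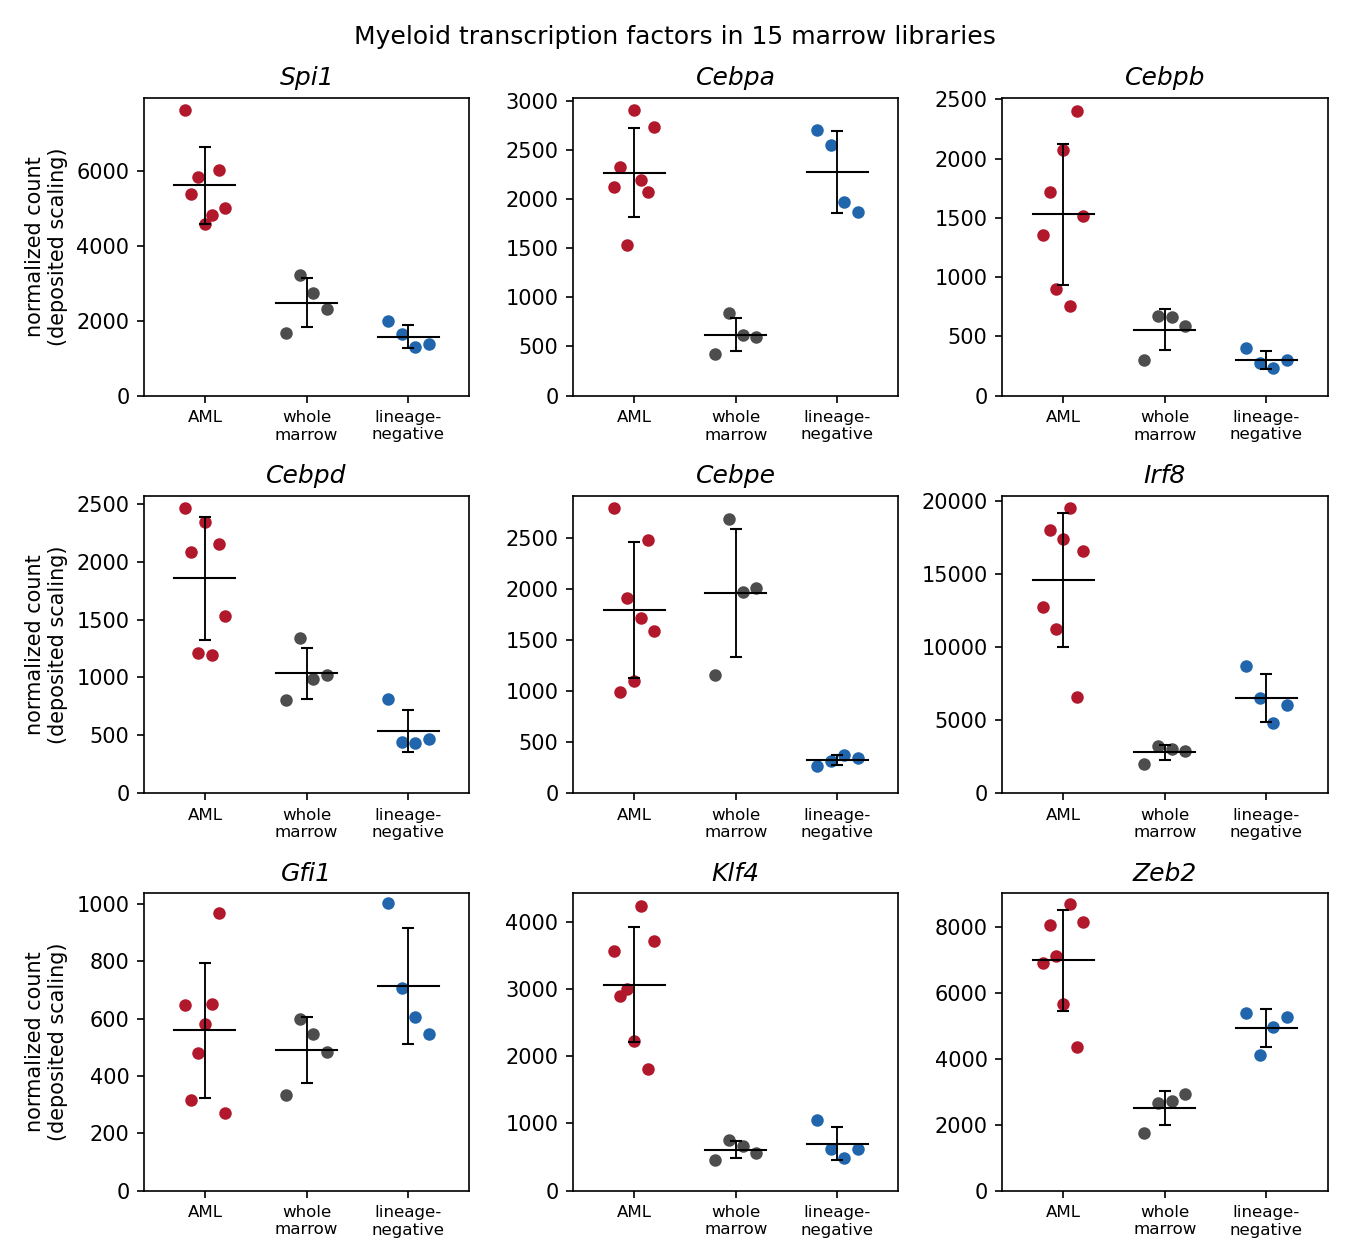
Normalized count of each of the 9 factors in every library, on linear axes that start at 0, with the group mean as a horizontal line and the SD as an error bar. Irf8 and Klf4 in AML lie above whole marrow in all 7 libraries, whereas Cebpe and Gfi1 overlap with it.

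Spi1 (ENSMUSG00000002111, chromosome 2, 90912735 to 90946101, plus strand in the table's coordinates) measured 4570 at its lowest, 5384 at the median and 7625 at its highest in AML. In whole marrow it was 1664, 3208, 2726 and 2299 in replicates 1 to 4, and in lineage-negative marrow 1987, 1642, 1287 and 1377. Every AML library lay above every normal library, while the normal groups overlapped at 1664 and 1987. The difference from whole marrow was 1.20 ± 0.20 (SE, limma adjusted p = 5.28e-05), and after TMM scaling it was 0.51 (adjusted p = 0.0137), below the size needed for a call although the groups still did not overlap. Against lineage-negative marrow Spi1 was 3.57-fold higher (log2 difference 1.83, adjusted p = 3.03e-07).

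Cebpa (ENSMUSG00000034957, chromosome 7, 34818718 to 34821353, plus strand) had a different pattern, with AML at the level of lineage-negative marrow. Its AML values were 1533 at the lowest, 2189 at the median and 2902 at the highest. The whole marrow values were 422, 837, 615 and 600.3, and the lineage-negative values were 2700.3, 2550.5, 1972 and 1862. AML and lineage-negative libraries overlapped, and every library of both lay above whole marrow. Cebpa was 3.70-fold higher in AML than in whole marrow (log2 difference 1.89 ± 0.20, limma adjusted p = 8.27e-07), and 1.19 higher on the log2 scale after TMM scaling (adjusted p = 1.86e-05). Between AML and lineage-negative marrow the difference was -0.01 ± 0.20 (SE, adjusted p = 0.973).

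The other C/EBP genes were lowest in lineage-negative marrow. Cebpb (ENSMUSG00000056501, chromosome 2, 167530835 to 167532338, plus strand), a factor of macrophage activation and emergency granulopoiesis, ranged over 753, 1518 and 2402 (lowest, median, highest) in AML. Its values were 303, 669.99, 664 and 589 in whole marrow and 398, 270.2, 229 and 302 in lineage-negative marrow. All 7 AML libraries exceeded all 8 normal libraries on this scaling. Cebpb was 4.84-fold higher in AML than in lineage-negative marrow (log2 difference 2.27 ± 0.29, limma adjusted p = 2.97e-06). The difference from whole marrow was 1.42 ± 0.29 (adjusted p = 0.000388), but after TMM scaling it was 0.73 (adjusted p = 0.0446), not called, with 5 of 7 AML libraries above all whole marrow libraries and 1 below them.

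Cebpd (ENSMUSG00000071637, chromosome 16, 15705150 to 15708895, plus strand), which is induced by cytokines such as G-CSF, measured 1194, 2081 and 2467 (lowest, median, highest) in AML. Its 4 values were 802, 1336, 984 and 1017 in whole marrow and 809, 442, 432 and 467 in lineage-negative marrow, where replicate 1 stood above the other 3. AML overlapped with whole marrow, and the difference of 0.81 did not reach the size needed for a call (limma adjusted p = 0.00609), nor did the 0.11 after TMM scaling. Against lineage-negative marrow Cebpd was 3.44-fold higher in AML (log2 difference 1.78, adjusted p = 4.54e-06), with no overlap.

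Cebpe (ENSMUSG00000052435, chromosome 14, 54947817 to 54949631, minus strand) drives the late neutrophil programme, including the genes of secondary granules. In AML it ran from 991 through a median of 1718 to 2788. The whole marrow values were 1156, 2688, 1971 and 2007 and the lineage-negative values 262, 318, 375 and 345. AML and whole marrow covered the same range, and lineage-negative marrow lay below both. The log2 difference from whole marrow was -0.15 ± 0.27 (SE, limma adjusted p = 0.636). After TMM scaling it was -0.85 (adjusted p = 0.00802), and no AML library reached the whole marrow range, but the size needed for a call was not met. Against lineage-negative marrow Cebpe was 5.22-fold higher in AML (log2 difference 2.39, adjusted p = 5.01e-07), the comparison in which the sum of neutrophil markers also differed.

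Irf8 (ENSMUSG00000041515, chromosome 8, 121463097 to 121483433, plus strand) and Gfi1 (ENSMUSG00000029275, chromosome 5, 107864523 to 107873902, minus strand) are shown with the 250 bases before their transcription starts. They were picked because their ratio, given below, passed its test for AML against both normal groups. With 1 library left out, the call against lineage-negative marrow held only without AML replicate 6. The windows are from RefSeq on GRCm38.p6, at chr8:120736108-120736357 on the plus strand and chr5:107725806-107726055 on the minus strand. Capitals mark letters that match a motif searched on both strands.
Irf8: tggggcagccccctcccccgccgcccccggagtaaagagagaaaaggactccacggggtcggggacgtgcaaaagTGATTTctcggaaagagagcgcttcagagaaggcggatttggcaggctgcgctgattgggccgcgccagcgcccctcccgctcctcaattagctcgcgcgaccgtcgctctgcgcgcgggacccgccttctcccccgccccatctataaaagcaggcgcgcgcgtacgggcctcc
Gfi1: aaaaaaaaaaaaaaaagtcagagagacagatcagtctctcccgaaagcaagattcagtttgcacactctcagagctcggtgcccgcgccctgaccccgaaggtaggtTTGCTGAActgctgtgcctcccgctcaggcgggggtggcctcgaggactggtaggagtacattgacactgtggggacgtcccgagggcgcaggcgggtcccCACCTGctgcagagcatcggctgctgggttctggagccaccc

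The Irf8 window held the reverse of the GFI1 letters AAATCA at positions -175 to -170 from the start. The Gfi1 window held the reverse of the C/EBP letters TTNNGCAA at -143 to -136 and the reverse of the ZEB letters CAGGTG at -42 to -37, and the matches did not overlap. Promoters were matched for 6 of the 9 factors, all but Spi1, Cebpd and Cebpe, and the GFI1 letters were found in 1 of these 6, the ZEB letters in 1 and the C/EBP letters in 2 (Gfi1 and Zeb2). Over the windows of 27025 genes, the shares were 12.7% for GFI1, 17.1% for ZEB and 9.55% for C/EBP. The PU.1 letters GAGGAAG (10.4% of windows), the IRF letters (GAAA, any 2 bases, GAAA; 3.04%) and the KLF letters CACACCC (6.85%) were in 0 of the 6. These are matches of letters in 1 window per gene and say nothing of binding.

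Irf8 and Klf4 showed the largest differences from whole marrow of the 9 factors. Irf8 ran from 6618 in AML replicate 6 through a median of 16578 to 19532. The values were 2023, 3221, 3003 and 2890 in whole marrow and 8744, 6518, 4823 and 6023 in lineage-negative marrow. AML lay wholly above whole marrow, and 6 of 7 AML libraries exceeded all lineage-negative libraries. Irf8 was 5.04-fold higher in AML than in whole marrow (log2 difference 2.33 ± 0.26, limma adjusted p = 1.51e-06) and 3.11-fold higher after TMM scaling (1.64, adjusted p = 3.44e-05). Against lineage-negative marrow it was 2.17-fold higher (1.12 ± 0.26, adjusted p = 0.00174), but without lineage-negative replicate 3 the difference was 0.98 and no longer reached the size needed. Dendritic cell markers were also higher in AML. Against whole marrow 4 of 6 were called higher on either scaling, beside 27.3% of all genes as deposited and 4.73% after TMM scaling. Against lineage-negative marrow 5 of 6 were called higher on either scaling, beside 17.7% and 17.6% of all genes. The 6 include Flt3, the receptor gene of the FLT3-ITD genotype. Its median was 3218 in AML, 293 in whole marrow and 1805 in lineage-negative marrow. The sums of all these markers, Flt3 included, were 1938 to 9921 in AML (median 7825), 1068 to 1638 in whole marrow (median 1576) and 2140 to 3060 in lineage-negative marrow (median 2665). Their part in the Irf8 difference was not tested.

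Klf4 (ENSMUSG00000003032, chromosome 4, 55527143 to 55532466, minus strand), a zinc finger factor needed for Ly6C-high monocytes, measured 1810 (replicate 6), 3002 and 4248 as the lowest, median and highest AML values. Whole marrow gave 456, 748, 664 and 561, and lineage-negative marrow 1053, 623, 483 and 623. Every AML library lay above every normal library, also after TMM scaling, and the normal groups overlapped. The gene was 4.95-fold higher than in whole marrow (log2 difference 2.31 ± 0.24, limma adjusted p = 5.99e-07; 1.61 after TMM scaling, adjusted p = 1.55e-05) and 4.44-fold higher than in lineage-negative marrow (2.15, adjusted p = 4.83e-07). The 5 monocyte markers, listed above by their sum, were called higher in AML in both comparisons (5 of 5 each as deposited, and after TMM scaling 3 of 5 against whole marrow and 5 of 5 against lineage-negative marrow). Of all genes 27.3% were called higher against whole marrow (4.73% after TMM scaling) and 17.7% against lineage-negative marrow (17.6%).

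Zeb2 (ENSMUSG00000026872, chromosome 2, 44873644 to 45007407, minus strand), a zinc finger repressor needed for monocytes and plasmacytoid dendritic cells, ran from 4348 (replicate 6) through 7107 to 8685 in AML. It was 1745, 2655, 2719 and 2924 in whole marrow and 5378, 4124, 4964 and 5273 in lineage-negative marrow. AML did not overlap with whole marrow, and 6 of 7 AML libraries exceeded all lineage-negative libraries. Zeb2 was 2.77-fold higher than in whole marrow (log2 difference 1.47 ± 0.20, limma adjusted p = 1.10e-05), and the 0.77 after TMM scaling (adjusted p = 0.000674) was short of the size needed. The difference from lineage-negative marrow was 0.48 (adjusted p = 0.0650), not called. After TMM scaling it was also 0.48 (limma adjusted p = 0.0131), short of the size needed.

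Gfi1 was not called in any of the 3 comparisons. Its AML values ran from 269.7 in replicate 7 through 583 to 969.9 in replicate 6. Whole marrow gave 335, 599, 546 and 484, and lineage-negative marrow 1002, 707, 607 and 546. AML overlapped with both normal groups. The log2 difference was 0.11 ± 0.29 from whole marrow (SE, limma adjusted p = 0.762), which changed sign to -0.59 after TMM scaling (adjusted p = 0.107), and -0.43 from lineage-negative marrow (adjusted p = 0.241).

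**Figure D2:**
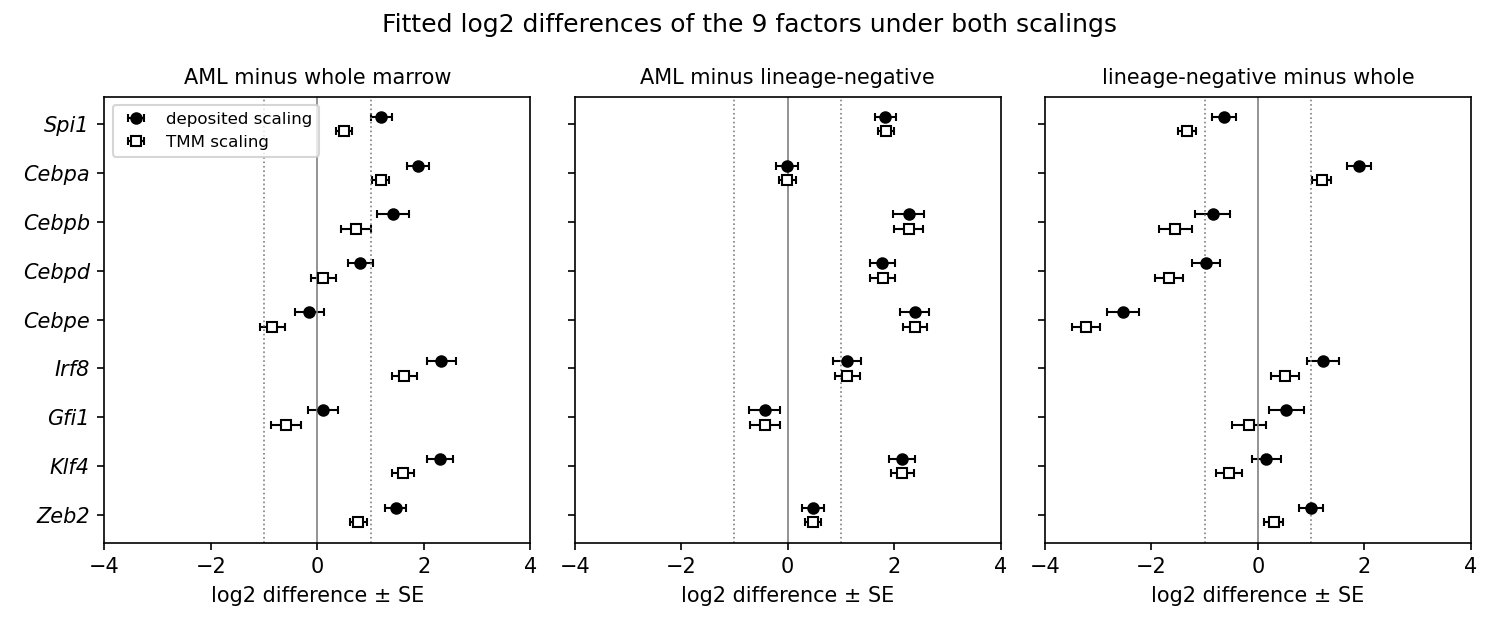
Log2 difference of each factor, with its standard error, in the 3 comparisons on the deposited (filled) and the TMM (open) scaling, with dotted lines at the size needed for a call. Irf8 and Klf4 lie above 1 for AML against either normal group on both scalings, and Cebpa lies near 0 against lineage-negative marrow.

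The normal groups were compared with each other to show how the factors differ when mature cells are removed. On the deposited scaling Cebpa (log2 difference 1.90, limma adjusted p = 1.25e-06) and Irf8 (1.22, adjusted p = 0.00147) were called higher in lineage-negative marrow and Cebpe lower (-2.53, adjusted p = 1.12e-06), so 2 of 9 rose and 1 of 9 fell, beside 33.1% and 17.2% of all genes. After TMM scaling Cebpa remained higher (1.20), the Irf8 difference was 0.52 and not called, and Spi1 (-1.33), Cebpb (-1.55), Cebpd (-1.67) and Cebpe (-3.24) were called lower. That made 1 of 9 higher and 4 of 9 lower, beside 11% and 24.8% of all genes. The lineage-negative libraries lay wholly above whole marrow for 3 factors (Cebpa, Irf8 and Zeb2; 41.1% of all genes) and below for 1 (16.6%), and after TMM scaling above for 1 (23.6%) and below for 4 (30.3%). Klf4 changed sign between the scalings, from 0.16 to -0.54, and Gfi1 from 0.54 to -0.17, neither being called on either. Zeb2 was just under the size needed (0.99, adjusted p = 0.000941) on the deposited scaling and over it without whole marrow replicate 2, 3 or 4 or lineage-negative replicate 2 (1.03 to 1.08), and was 0.29 after TMM scaling. Cebpb (-0.85) passed without whole marrow replicate 1 (-1.12), and Cebpd (-0.97) without whole marrow replicate 1 (-1.09) or lineage-negative replicate 1 (-1.19). In this comparison the sum of stem and progenitor markers was also higher in lineage-negative marrow, at 10796 to 15925 against 1092 to 1920, and its part was not tested.

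Ratios of 2 factors within a library do not depend on the library's scaling. The Irf8 to Gfi1 ratio of normalized counts was 6.82 at its lowest, 29.8 at the median and 61.3 at its highest in AML, against 5.37 to 6.03 in whole marrow and 7.93 to 11.02 in lineage-negative marrow. It was higher in AML than in whole marrow in 7 of 7 libraries, by 2.23 on the log2 scale (exact permutation p = 0.00606, adjusted p = 0.0218 over 18 comparisons). It was higher than in lineage-negative marrow by 1.55 (exact p = 0.0303, adjusted p = 0.0420) in 6 of 7 libraries, with replicate 6 below. Without both AML replicates 5 and 6 the differences were 2.59 and 1.91 (adjusted p = 0.0238 each). Without AML replicate 5 or 7 the adjusted p against whole marrow was 0.0514 (differences of 2.20 and 2.03). Against lineage-negative marrow it stayed under 0.05 only when AML replicate 6 was left out (1.87, adjusted p = 0.0122), and leaving out any other library gave 1.35 to 1.63 with an adjusted p of 0.0527 to 0.0857. The smallest exact p these designs allow is 0.00303 for AML against 4 samples and 0.0286 for 4 against 4.

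The other monocyte to granulocyte ratios were also higher in AML than in whole marrow by the test, with all 7 AML libraries above whole marrow for Irf8 to Cebpe and Klf4 to Cebpe and 6 of 7 for Zeb2 to Gfi1, where replicate 6 (4.48) lay inside the whole marrow range. Irf8 to Cebpe was 2.67 to 18.2 in AML and 1.20 to 1.75 in whole marrow (log2 difference 2.48, exact permutation p = 0.00606, adjusted p = 0.0218). Klf4 to Cebpe was 0.731 to 2.93 against 0.278 to 0.395 (2.46, exact p = 0.00303, adjusted p = 0.0182), and Zeb2 to Gfi1 was 4.48 to 30.1 against 4.43 to 6.03 (1.36, exact p = 0.0273, adjusted p = 0.0420). Irf8 to Cebpe lost its call without AML replicate 5 or 7 (2.40 and 2.43, adjusted p = 0.0514), and Zeb2 to Gfi1 without AML replicate 2, 3, 5 or 7 or any 1 whole marrow library (1.17 to 1.44, adjusted p up to 0.0857). None of these 3 passed against lineage-negative marrow, where Irf8 to Cebpe differed by -1.27 (adjusted p = 0.0584), Klf4 to Cebpe by -0.24 and Zeb2 to Gfi1 by 0.91 (adjusted p = 0.116), although without AML replicate 6 the last was 1.17 (adjusted p = 0.0286). Irf8 to Cebpe passed, lower in AML, without AML replicate 2 (-1.46, adjusted p = 0.0468) or 4 (-1.43, adjusted p = 0.0462). Normal lineage-negative marrow also lay above whole marrow in all 4 libraries for Irf8 to Cebpe (12.8 to 33.2, difference 3.75) and Klf4 to Cebpe (1.29 to 4.00, 2.69). The same held for Irf8 to Gfi1 (0.68), and each had an exact permutation p of 0.0286 (adjusted p = 0.0420). Zeb2 to Gfi1 did not pass between the normal groups (0.46, adjusted p = 0.129). Among the shared factors, Spi1 to Cebpa was 1.57 to 3.81 in AML, between the 3.82 to 4.43 of whole marrow and the 0.644 to 0.740 of lineage-negative marrow, and differed from both (-0.69, exact p = 0.0121, adjusted p = 0.0364, and 1.84, exact p = 0.00303, adjusted p = 0.0182). Cebpb to Cebpa was 0.344 to 1.16 in AML, above the 0.106 to 0.162 of lineage-negative marrow (2.28, exact p = 0.00303, adjusted p = 0.0182), and did not differ by the test from the 0.719 to 1.08 of whole marrow (-0.47, adjusted p = 0.151), but did without AML replicate 6 (-0.61, adjusted p = 0.0343). The Spi1 to Cebpa call against whole marrow was lost without AML replicate 5 or 7 or any 1 whole marrow library (-0.71 to -0.61, adjusted p = 0.0545 to 0.0625), while Klf4 to Cebpe against whole marrow and both ratios over Cebpa against lineage-negative marrow passed whichever library was left out.

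**Figure D3:**
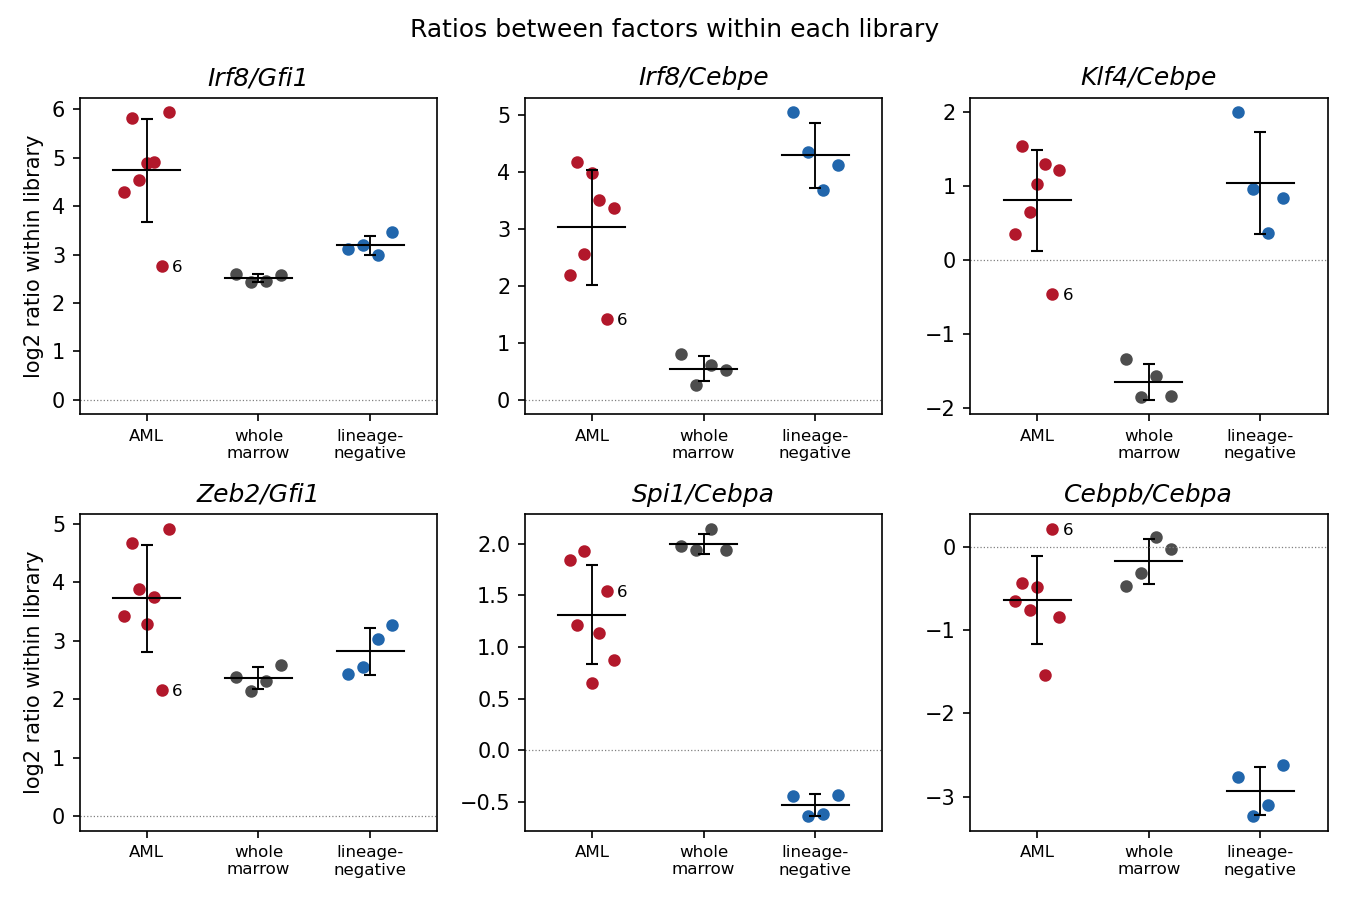
Log2 ratio of 6 pairs of factors within each library, by group, with the group mean as a horizontal line and the SD as an error bar, and AML replicate 6 marked. Irf8/Gfi1, Irf8/Cebpe and Klf4/Cebpe lie higher in all 7 AML libraries than in the 4 whole marrow libraries, and for Irf8/Gfi1 replicate 6 lies just below the lineage-negative libraries while the other AML libraries lie above them.

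Levels were compared between genes per kilobase of exonic length. In AML Spi1 (2081 ± 384, SD, n = 7) and Irf8 (2069 ± 651) led and did not differ beyond their spread, followed by Cebpe at 1447 ± 535. Cebpb (1018), Klf4 (1007) and Cebpa (860) overlapped in spread, and Cebpd (495), Zeb2 (351) and Gfi1 (176) were lowest. In whole marrow Cebpe stood first at 1576 ± 505 (SD, n = 4) and Spi1 next at 918 ± 243, and the other 7 lay between 126 and 395. In lineage-negative marrow Irf8 (925 ± 232) and Cebpa (862 ± 158) were at the top within each other's spread, Spi1 was at 584 ± 117, and the remaining 6 lay between 143 and 262. The length used for Zeb2 was 19942 bases, the sum of its exons over all annotated isoforms, and its value per kilobase depends on that choice.

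AML marrows differed among themselves in the balance of the factors. Replicate 6 held the lowest Irf8, Klf4 and Zeb2 and the highest Gfi1 of the 7. On the TMM-scaled log2 values, replicate 6 lay at -0.995 from the AML mean for Irf8, at -0.64 for Klf4 and -0.58 for Zeb2, and at 0.98 for Gfi1, 0.82 for Cebpb and 0.62 for Cebpe. It is also the library with the fewest genes at 0 in AML. Its dendritic marker sum, which includes Flt3, was the lowest (1938, against 4354 to 9921 in the other 6). The part of these in its profile was not tested. Over the 7 AML samples, 0 of 36 pairs of factors had an adjusted p under 0.05 for Pearson's r or Spearman's rho (exact permutation tests), and 5 had an unadjusted Pearson p under 0.05. The largest was Klf4 with Zeb2 (r = 0.88, exact p = 0.0107, adjusted p = 0.234, and rho = 0.75, exact p = 0.0663). Its r was 0.72 to 0.95 with any 1 sample left out, and 0.20 without the 2 samples farthest from the median of Klf4. Leaving out these 2 narrows the range of Klf4, which can by itself lower r, so no conclusion is drawn from that fall. Cebpe with Irf8 had r = -0.80 (exact permutation p = 0.0260), which did not pass the adjustment. Its r was -0.89 without the 2 samples farthest from the median of Cebpe. Those 2 did not include replicate 6, so this value is no check on that library. With any 1 sample left out, or with other pseudocounts or the deposited scaling, r was -0.85 to -0.68.

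**Figure D4:**
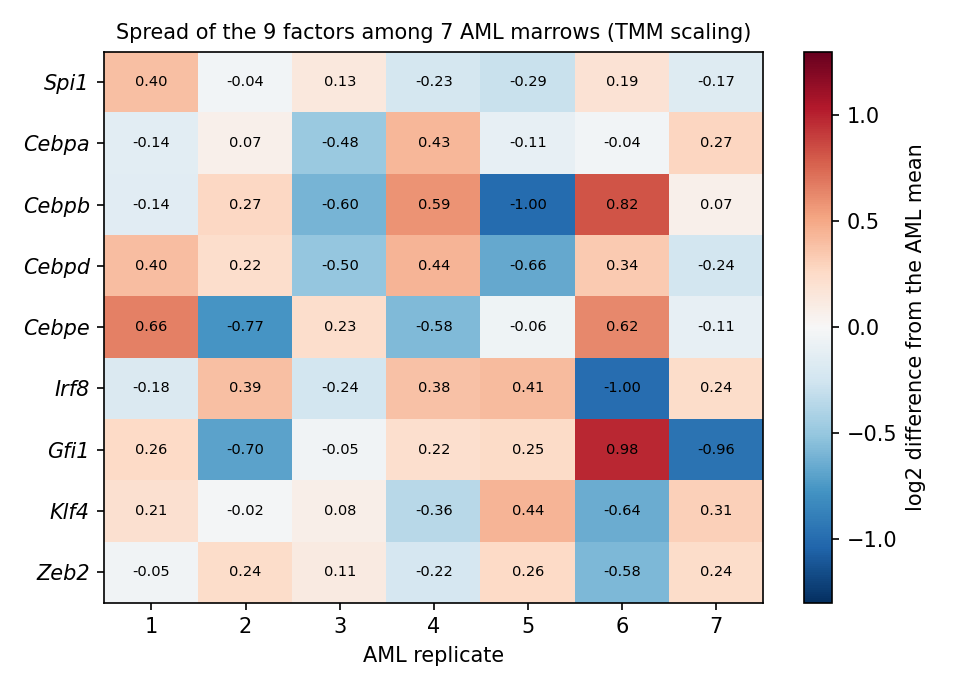
Deviation of each factor (rows) from its AML mean in the 7 AML libraries (columns), as TMM-scaled log2 values, coloured from blue (below the mean) to red (above). Replicate 6 sits lowest for Irf8, Klf4 and Zeb2 and highest for Gfi1.

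Fixed lists of myeloid genes were read next, of which only the receptor list was drawn up as targets of the factors. The monocyte and neutrophil lists hold all the monocyte and neutrophil markers summed above, so they are not separate from those sums. Of 16 monocyte and macrophage genes, 15 were called higher in AML than in whole marrow and 0 lower (8 and 0 after TMM scaling). The shares of all genes were 27.3% and 11.3% (4.73% and 16% after TMM scaling). The median log2 difference of the list was 1.87 against 0.67 over all genes (1.17 against -0.01 after TMM scaling). Ctss, a lysosomal protease, differed by 2.58 (1.88 after TMM scaling) and Ly86, which encodes a partner of a toll-like receptor relative, by 2.46 (1.76). All 16 were called higher than in lineage-negative marrow, beside 17.7% of all genes. Lyz2, the lysozyme of macrophages and neutrophils, led them (5.82). Of 20 neutrophil granule and maturation genes, 0 were called in either direction by limma between AML and whole marrow as deposited (median 0.04). After TMM scaling 0 were higher and 2 lower (Fcnb -1.04 and Cxcr2 -1.37), set against the same shares of all genes. Against lineage-negative marrow 15 of the 20 were higher in AML, Chil3 by 8.24, and 2 were lower, Mpo (-2.21) and Ctsg (-1.68), both products of early promyelocytes. Of all genes 17.7% were called higher and 12.5% lower there. The 11 receptor genes long used as PU.1 or C/EBP targets gave 6 higher and 0 lower against whole marrow (3 and 1 after TMM scaling), beside 27.3% and 11.3% of all genes (4.73% and 16%). Among them Csf1r, the receptor for M-CSF, differed by 2.29 (1.59 after TMM scaling). Against lineage-negative marrow 10 of the 11 were higher, beside 17.7% of all genes, among them Itgam (4.58).

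Relatives and partners of the factors included genes called in both directions. Of 22 paralogs, 9 were called higher and 3 lower in AML than in whole marrow, and 1 higher and 5 lower after TMM scaling. The shares of all genes were 27.3% and 11.3%, and 4.73% and 16% after TMM scaling, so the count of higher paralogs after TMM scaling is near that of genes in general. Irf5, an interferon regulatory factor of macrophages, differed by 2.20 (1.499 after TMM scaling). Klf1, the erythroid factor, differed by -6.62 (-7.30) and Gfi1b, the erythroid and megakaryocyte relative of Gfi1, by -4.29 (-4.98). Against lineage-negative marrow 14 were higher and 2 lower, beside 17.7% and 12.5% of all genes, with Irf4 (4.40) and the PU.1 relative Spib (4.37) at the top. Both are also expressed in B cells, and 4 of 5 B cell markers were called higher in the same comparison, their sum being given above. Against whole marrow all 5 B cell markers were called lower in AML. Dendritic cell markers were called higher than in lineage-negative marrow too (5 of 6). The part of either cell type was not tested. Of 23 partner and opposing factors, 9 were higher and 5 lower than in whole marrow (1 and 5 after TMM scaling) and 6 higher and 9 lower than in lineage-negative marrow, set against the same shares of all genes. The 1 of 23 after TMM scaling is again near the general share. Batf3, which acts with Irf8 in dendritic cells, averaged 183 normalized counts in AML and 6.67 in whole marrow, which is below that group's mean of 8.45 over the olfactory and vomeronasal genes, so no size of difference is given. Gata1, which opposes PU.1, was at -5.27 (-5.95 after TMM scaling). Klf1, Gfi1b and Gata1 were thus lower in AML than in whole marrow, as was the erythroid marker sum given above, which includes Klf1 and Gata1. In lineage-negative marrow that sum was also below whole marrow, at 6572 to 31959. The 3 factors were not, averaging 1839, 1302 and 1621 there against 1531, 551 and 808 in whole marrow. The part of erythroid cells was not tested.

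The genes closest to each factor in pattern were sought among 10280 other protein-coding genes by the root mean square of their log2 difference over the 15 samples, after TMM scaling and centring. For Spi1 they were Flna (0.170) and Arhgap9 (0.176), for Cebpa Il3ra (0.187) and Slc25a4 (0.207), and for Zeb2 Macf1 (0.143) and Mycbp2 (0.147). Cebpe was closest to Trp53inp1 (0.146) and Tcp11l2 (0.197), Cebpd to Tmem38b (0.206) and Gsr (0.218), and Gfi1 to Alas1 (0.255) and Prss57 (0.270). Irf8 was closest to Il6st (0.214) and Trim14 (0.224), Klf4 to Sh3tc1 (0.224) and Kifc3 (0.262), and Cebpb to Ptpn1 (0.318) and Nod1 (0.349). By the first neighbour, Zeb2 and Cebpe had the nearest and Cebpb the most distant, while the second neighbour of Cebpe was farther than both of Spi1.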

How the data were processed

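The deposited table holds the authors' normalized counts for 38315 genes in 15 libraries, a signal that is not a raw count: estimated reads divided by size factors. Partek, STAR, DESeq2 and mm10 are named in the submitters' processing notes, without versions or roles, and the size factor reading is from the values. Total RNA libraries were made with a stranded kit, per the labels' protocols; whether counting used strand is not given in the sources used here. Whole reads could not be recovered (82.2 to 87.1% of low values lay within a tolerance of 0.02 of a whole multiple), so no count model was run and depths are estimates. The table's gene starts matched GRCm38 for 1 of 9 factors although all 9 spans matched, and the positions printed are the table's own, on a build that is not settled.

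Differences are limma 3.58.1 (R 4.3.3) fits of 3 group means to log2(normalized count + 1), with a mean-variance trend and Benjamini-Hochberg adjustment over 18941 genes of at least 10 in at least 4 samples. Ratios used two-sided exact permutation tests over all splits, coded with numpy 2.4.6. Spearman's rho was computed in scipy 1.17.1. TMM scaling was computed over the genes kept. The code was tested on simulated data. Exonic lengths came from GENCODE annotation and promoters from RefSeq. All 9 factors are named. Each list could add by name its 2 highest and its 2 lowest called genes per comparison, and each factor its 2 genes of nearest pattern. The members and lists were chosen with earlier results of these data known. Alternatives were other pseudocounts, filters, scalings, variance models, weights and left-out samples.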

Additional observations from a re-analysis of the deposited data

Results flagged for a closer look

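Cebpd in lineage-negative replicate 1 measured 809 normalized counts, while the other 3 lineage-negative samples lay between 432 and 467 (median 442). The gap to the nearest sample was 0.909 of the group's whole range. It was the only sample that stood this far apart among 45 groups of values tested. Chance sets apart about 1 in 20 groups, so 1 flag among 45 is no more than chance would give. The same library held the highest value of its group for every factor but Cebpe, which was lowest there (262 against 318 to 375). It also held the highest sum of neutrophil markers of its group, 15960 against 897 to 7760. Its sum of erythroid markers was the highest as well, 31959 against 6572 to 9677. The part of these in the Cebpd value was not tested.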

How the results depend on the processing

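The calls on the 9 factors moved mainly with the scaling. AML against whole marrow gave 3 factors higher under TMM or quantile scaling and 5 with array weights, where Spi1 was 0.99. Lineage-negative against whole marrow gave 1 higher and 4 lower under TMM or quantile scaling, 1 higher and 3 lower with array weights, and 1 to 3 lower with 1 library left out (3 without whole marrow replicate 1, 2 without lineage-negative replicate 1). Under quantile scaling Irf8 against lineage-negative marrow was 0.93 and not called, and without lineage-negative replicate 3 it was 0.98 (0.92 after TMM scaling). Other pseudocounts, filters, robust variance, the 2 groups alone and background subtraction changed no factor's call.

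Signs changed only for differences that were not called. Gfi1 against whole marrow was -0.59 with TMM scaling, -0.67 with quantile scaling, -0.24 with array weights, -0.14 without AML replicates 5 and 6, and -0.0669 to 0.26 with 1 library left out. Cebpe there ran from -0.38 to 0.0242. Cebpa against lineage-negative marrow was 0.17 with array weights, 0.0166 without AML replicates 5 and 6 (0.0253 after TMM scaling), and -0.0991 to 0.0801 with 1 library left out (-0.16 to 0.0957 after TMM scaling). Between the normal groups, Gfi1 was -0.17 with TMM scaling (-0.35 to 0.0313 with 1 library left out) and -0.21 with quantile scaling, and Klf4 was -0.54, -0.59 and -0.20 with TMM scaling, quantile scaling and array weights and -0.0606 to 0.31 with 1 library left out.

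With 1 library left out, the AML against whole marrow log2 ratios ran from 2.03 to 2.56 for Irf8/Gfi1, 2.29 to 2.75 for Irf8/Cebpe, 1.17 to 1.62 for Zeb2/Gfi1, -0.79 to -0.58 for Spi1/Cebpa and -0.61 to -0.32 for Cebpb/Cebpa. Against lineage-negative marrow they ran from 1.35 to 1.87 for Irf8/Gfi1, -1.48 to -1.0001 for Irf8/Cebpe, -0.46 to 0.0824 for Klf4/Cebpe and 0.71 to 1.17 for Zeb2/Gfi1. Without AML replicates 5 and 6, Zeb2/Gfi1 against lineage-negative marrow was 1.21 (adjusted p = 0.0408) and Cebpb/Cebpa against whole marrow -0.46 (adjusted p = 0.0357), both then passing, while Spi1/Cebpa against whole marrow was -0.70 (adjusted p = 0.0667). Fewer samples allow fewer splits, which raises the smallest exact p.

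Over all genes, AML against whole marrow gave 5167 higher and 2132 lower as deposited, 896 and 3035 with TMM scaling, 2474 and 2288 with quantile scaling, and 3179 higher without whole marrow replicate 1. The count lower was 11289 with every non-zero gene and 460 with a mean filter of 50. Background subtraction gave 7742 higher and 1621 lower. AML against lineage-negative marrow gave 3359 and 2373 as deposited, and 2225 higher with the mean filter. Between the normal groups, 6266 and 3259 became 2076 and 4691 with TMM scaling and 4133 higher with quantile scaling, and the count lower was 12497 with every non-zero gene and 1244 with the mean filter.

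Replicate numbers are shared between the groups, and no clear sign of pairing was seen. The deviations of same-numbered samples correlated at -0.29 to 0.17, and 2, 2 and 3 of 8 samples correlated best with their own number. With 4 samples per normal group and different cells in each group, these correlations cannot exclude that samples share a mouse. A fit with the replicate block called 5257 genes higher and 2198 lower for AML against whole marrow, and left the 6, 6 and 2 factors called higher and the 1 called lower unchanged. Whole marrow values are limited by low depth and, for low genes, by the background signal of 6.31 to 11.9 normalized counts over olfactory and vomeronasal genes.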
